A study of Homo sapiens with 4 samples.

Results

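SR proteins are splicing factors with RNA recognition motifs (RRMs) and a tail rich in arginine and serine, the RS domain. They bind enhancer sequences in exons, recruit the spliceosome to nearby splice sites, and in part accompany the mature mRNA to the cytoplasm. Many of their own transcripts contain a conserved exon with an early stop codon, through which SR proteins limit their own levels by nonsense-mediated decay. Here the transcripts of 10 SR protein genes, SRSF1 to SRSF7, SRSF9, SRSF10 and SRSF11, were followed in a crosslinked RIP-seq experiment on PRMT5, an arginine methyltransferase that works with WDR77 and that the study examined as an RNA-binding protein.

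The cells were Jurkat cells, an established human T cell leukemia line, kept for 48 hours with PHA, a lectin that stimulates T cells, and crosslinked with UV light of 264 nm at 400 mJ as the labels give it. All libraries shared this treatment. The RIP method of the paper gives a slightly shorter wavelength than the labels. There were 2 PRMT5 RIP libraries, made from RNA recovered with FLAG antibody, and 2 input libraries, made from RNA of the lysate, and nothing in the labels says whether the libraries of a group came from separate cultures. The RIP method of the paper lists antibodies to both PRMT5 and FLAG. The paper does not say which of them the sequencing used, or whether the sequenced cells carried a tagged PRMT5. The authors deposited 1 list of peaks with 1 pooled RPM value (the number of reads scaled to the size of the library) for PRMT5 RIP and 1 for input, so no value below has a spread between replicates, no difference could be tested over samples, and the read depth behind a value is unknown. A control immunoprecipitation was not analysed here.

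Peaks were taken as SR gene peaks when the first gene identifier listed for them matched 1 of the 10 genes on the same strand of GRCh38, and 20 of 18993 peaks met this rule. Every one of the 10 genes had at least 1 peak, and 4 genes had exactly 1, as had 3821 of the 8478 genes in the list. SRSF12, a related gene placed among the partner genes below, had no peak. The share of all annotated genes with a peak was not computed. All 20 peaks had an FDR at or below 0.01 from the peak caller, as had 18411 peaks of the whole list. The SR gene peaks were wide, with a median of 1047 nt against 275 nt over all peaks, and 5 of them, or 25%, exceeded 5000 nt, as did 14.1% of all peaks. All 20 were given as 1 uninterrupted block, so that any intron between the edges of a peak is part of it. Exons were not analysed here, so which exon or untranslated part each peak covers is not given. Of the T cell markers chosen to check the cell line, 11 of 14 were given a peak, among them CD3D with 417 RPM and LCK with 183 RPM in input, and 0 of 8 markers of other cell types were. A gene without a peak is not shown to lack RNA, because the list holds called regions only.

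In all 10 SR genes the 5′-most peak began close to the annotated start of the gene. The distance from the start of the RefSeq gene to the 5′ edge of that peak ran from 19 nt upstream, in SRSF1 and SRSF10, to 139 nt downstream, in SRSF7. A limit of 150 nt, chosen after these distances were seen, therefore held all 10 genes, and 57.9% of the 7283 genes whose position could be read met it. Within 50 nt there were 6 of 10 SR genes, beside 41.6% of those genes. When peaks under 0.5 RPM in input were left out, 8 of 10 SR genes met the 150 nt limit, beside 57.4% of all genes with a position. The start peaks of SRSF4 and SRSF11 had 0.37 and 0.28 RPM in input. Measured to the nearest RefSeq start in place of the gene start, the 150 nt limit held 10 of 10 SR genes, beside 68% of all genes with a position. Within 500 nt of the gene start there were 10 of 10 SR genes, beside 69.6%. In SRSF3 the edge of the peak and the start of the gene were the same base. The starts at which a peak edge fell within 20 nt follow here, together with an internal start of SRSF11, so that the edge can be seen against the sequence. Each window runs from 20 bases before to 10 bases from the start on, 5′ to 3′ on the strand of the gene, with sequence from RefSeq on GRCh38.p14, and capitals mark bases that lie inside an SR gene peak.
SRSF1, chr17:58007237-58007266, minus strand: tGCGCCGAGCTGATAAAGGCGCCATTTTGG
SRSF10, chr1:23980318-23980347, minus strand: cCCTCTAGCTGTGTGTGTCTGAGGCTCGGC
SRSF6, chr20:43457876-43457905, plus strand: gcctggcgcgcgcgcgcGCCATTGTGTGGC
SRSF3, chr6:36594342-36594371, plus strand: ggcgaggagaaggcggtggtCCGCCATTTC
SRSF5, chr14:69767122-69767151, plus strand: gcgccagagctgctaagtgcgtcagTTGTG
SRSF7, second RefSeq start, chr2:38751352-38751381, minus strand: gcgaacccgggctcttcctcgtagtgCCGC
SRSF11, internal RefSeq start, chr1:70221360-70221389, plus strand: TGTGGGAGCTCGGGCCCGCTAgtgtcgtgg

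In SRSF6 the peak began 3 nt before the start, and in SRSF5 it began 5 nt after it. The SRSF7 peak lay 139 nt inside the gene but only 6 nt past a second RefSeq start. In SRSF11 the first peak did not begin but ended at the internal start, its last base being the first base of that transcript, and the next peak began 151 nt further on. The remaining first peaks began 36 nt after the gene start in SRSF11, 52 nt in SRSF9, 78 nt in SRSF2 and 100 nt in SRSF4. A promoter sequence of SRSF2 was not used here.

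**Figure D1:**
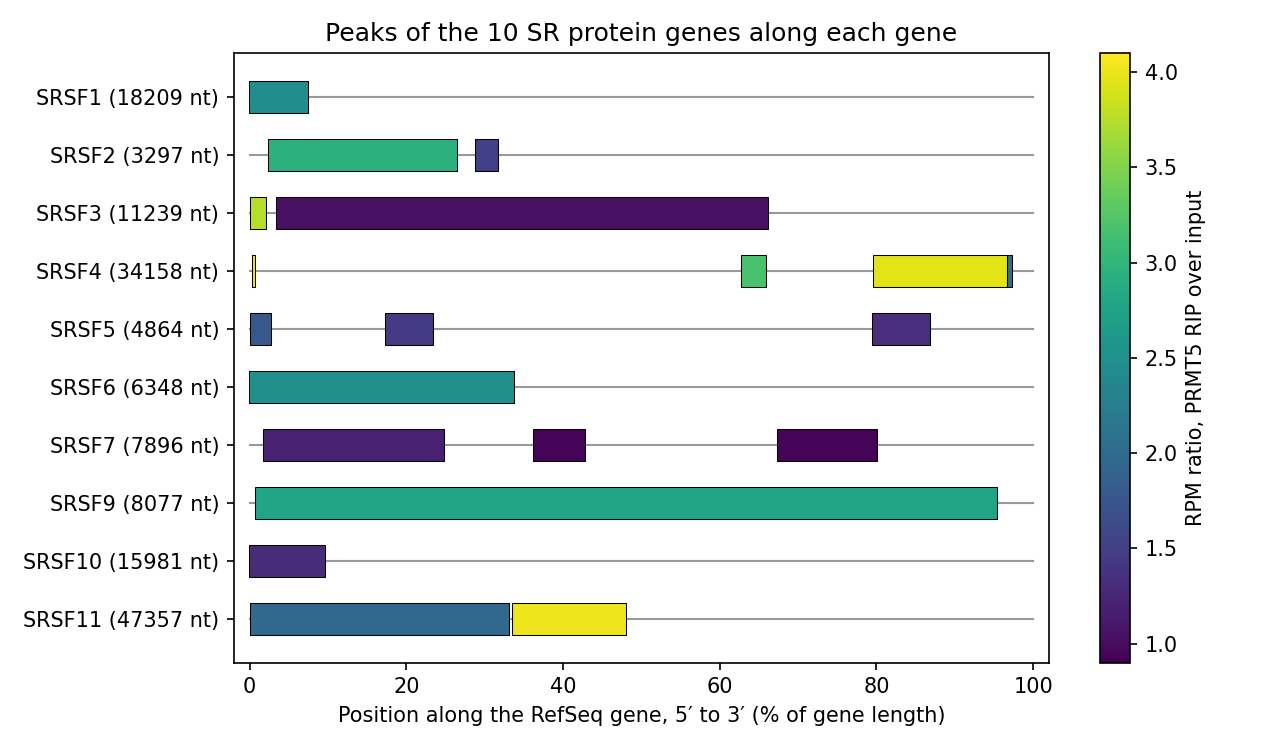
Position of the 20 peaks (boxes) along the 10 SR protein genes (gray lines, x axis in percent of gene length from 5′ to 3′, gene length in nt beside each name), with the color of a box giving the RPM ratio of PRMT5 RIP over input. Each gene has a box at its left end, while in SRSF1, SRSF6 and SRSF10 nothing was called beyond it.

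Toward the 3′ end the SR genes were covered less evenly than at the start. The median distance from the last peak edge to the annotated end was 3029.5 nt for SR genes and 4103 nt for all genes with a position. In 3 of 10 genes, SRSF4, SRSF5 and SRSF9, the 3′-most peak came within 1000 nt of the annotated end, and 34% of the 7283 genes with a position did so. The last peak of SRSF9 ended 375 nt before the gene end, that of SRSF5 639 nt and that of SRSF4 925 nt. In SRSF1, by contrast, the peak stopped 16843 nt before the annotated end, in SRSF10 14452 nt and in SRSF11 24615 nt. Peaks covered from 7.50% of the gene in SRSF1 to 94.7% in SRSF9. Measured at the peak midpoint, 5 of 20 SR gene peaks lay in the first 10% of the gene, close to the 27.2% of all 16695 peaks with a position. The nearness of the peak edges to gene starts thus did not appear as an excess of midpoints there, since the first peaks of SRSF2, SRSF6, SRSF7, SRSF9 and SRSF11 extended far into the gene.

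Enrichment was measured as the ratio of RPM in PRMT5 RIP to RPM in input, with 0.01 added to both. The scaling of the libraries is not stated, and the median over all 8478 genes in the list, with RPM summed over the peaks of a gene, was a ratio of 2.30 (1.20 on the log2 scale). The list also holds only regions called as peaks, and 188 of the 8478 genes lay below input. A ratio is therefore best read against that median rather than against 1. The 10 SR genes had a median log2 ratio of 1.31, and 6 of them reached a ratio of 2, compared with 62.4% of all genes. Of the 20 peaks, 10 reached a ratio of 2, compared with 55.8% of all peaks. Both shares were close to the background of the list on this scale. They were not on one that draws the ratios of weak peaks toward 1. With 1 RPM added in place of 0.01, 6 of 10 SR genes still reached a ratio of 2 while 30% of all genes did, 7 of 20 SR gene peaks did so beside 18.5% of all peaks, and the median log2 ratio was 1.22 for SR genes and 0.75 for all genes. The SR gene peaks have higher input RPM per peak than those of the list, and how they compare with it depends on the added constant. With 0.01 added and only peaks of at least 0.5 RPM in input, 9 of 18 SR gene peaks reached a ratio of 2, beside 43.8% of all such peaks. By gene, 6 of 10 SR genes did so, beside 50.6% of all genes. The SR genes differed among themselves, as did the genes of the whole list. The quartiles of the log2 ratio were 0.409 and 1.455 for SR genes and 0.773 and 1.709 for all genes. SRSF11, SRSF4, SRSF9, SRSF2, SRSF6 and SRSF1 lay between ratios of 2.46 and 3.84, SRSF5, SRSF10, SRSF3 and SRSF7 lay between 1.10 and 1.43, and no SR gene fell between these ranges. The counts depend on the peaks used and on the measure. Without the 4 SR gene peaks that overlap a peak on the opposite strand, which are all those of SRSF1, SRSF2 and SRSF9, the median log2 ratio was 0.52 and 3 of 7 SR genes reached a ratio of 2, while the median over all genes was 1.22 and 63.9% of them reached it. With the fold change of the peak caller, 17 of 20 SR gene peaks and 91.2% of all peaks reached 2-fold, and by the median over the peaks of a gene 9 of 10 SR genes and 94.9% of all genes did.

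SRSF1 and SRSF9 are close relatives with paired RRMs and a short RS domain, and each carried 1 peak. SRSF1, first known as SF2/ASF, is the best-studied SR protein and acts in splicing, mRNA export and translation. Its gene (ENSG00000136450.13) lies on the minus strand of chromosome 17 from 57989038 to 58007246. The peak from 58005881 to 58007265 had 29.98 RPM in RIP beside 12.19 RPM in input, a ratio of 2.46. SRSF9 (ENSG00000111786.9) lies on the minus strand of chromosome 12, from 120461672 to 120469748, where its peak from 120462047 to 120469696 had 84.13 RPM for RIP compared with 30.05 RPM for input, a ratio of 2.80. Both thus lay above the median of all genes, at rank 3788 for SRSF1 and rank 2936 for SRSF9 of 8478. The SRSF1 peak marks the 5′ part of its gene, whereas the SRSF9 peak takes in nearly the whole gene.

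Peaks on the opposite strand overlapped both of them. At SRSF1 a plus-strand peak of 325 nt lay wholly within the SRSF1 peak, with 22.15 RPM in the RIP libraries against 8.34 RPM in the input libraries and a ratio of 2.65. At SRSF9 a plus-strand peak shared 140 bases with the SRSF9 peak and had 8.59 RPM in RIP beside 6.91 RPM in input. How the authors assigned reads to strands in counting is not given in the sources used here, so reads of the 2 strands may not be fully separated at these loci, and their part in the ratios was not tested. SRSF2 is affected in the same way, and the other 7 SR genes had no such overlap. The peaks of SRSF1, SRSF2 and SRSF6 also list a second gene identifier, so part of their RPM may belong to another gene, while the other 16 SR gene peaks list 1.

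SRSF4, SRSF5 and SRSF6 share paired RRMs and a longer RS domain, and they differed in level of enrichment. SRSF4, the longest protein of the family, had 4 peaks, which lay on chromosome 1 (minus strand), and all 4 passed a ratio of 2. From 5′ to 3′ its PRMT5 RIP values were 1.53, 2.22, 5.52 and 2.86 RPM, beside 0.37, 0.69, 1.39 and 1.38 RPM in input. These gave ratios of 4.05, 3.19, 3.95 and 2.06, so the lowest enrichment was at the 3′-most peak, from 29148668 to 29148867. The highest was at the peak from 29181651 to 29181800, near the start of the gene, and the peaks between ran from 29159410 to 29160497 and from 29148893 to 29154721. Summed over its peaks, SRSF4 had a ratio of 3.16 and rank 2283 of 8478.

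SRSF6, known as SRp55, had 1 peak on the plus strand of chromosome 20, from 43457893 to 43460035, with 16.43 RPM for RIP compared with 6.59 RPM for input. Its ratio of 2.49 was nearly that of SRSF1. SRSF5, known as SRp40, had 3 peaks on the plus strand of chromosome 14 and a lower enrichment at each. They ran from 69767147 to 69767271, from 69767981 to 69768280 and from 69771004 to 69771366. From 5′ to 3′ they had 2.94, 4.07 and 7.96 RPM in RIP beside 1.66, 2.85 and 5.95 RPM in input. The ratios were 1.77, 1.43 and 1.34, so that none of the SRSF5 peaks reached the 2-fold line and RPM was highest where the ratio was lowest. Over its peaks SRSF5 had a ratio of 1.43, with only 13.8% of all genes lower.

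SRSF3 and SRSF7 are close relatives with 1 RRM, both of which also act as adapters for mRNA export through NXF1. They had the lowest gene values of the SR genes, but they reached them differently. SRSF3, the smallest SR protein, had 2 peaks on the plus strand of chromosome 6. The short one at the start, from 36594362 to 36594596, had 8.56 RPM in the RIP libraries against 2.28 RPM in the input libraries, a ratio of 3.74. The second, from 36594747 to 36601791, covered most of the gene and had 75.7 RPM in RIP beside 73.15 RPM in input, a ratio of 1.03. The gene value of 1.12 was thus set by the wide peak. Of all peaks, 4.78% had a lower ratio than this one and 82.5% a lower ratio than the start peak. Without peaks wider than 5000 nt, the log2 ratio of SRSF3 was 1.90 in place of 0.16.

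SRSF7, known as 9G8, has a zinc knuckle beside its RRM and carried 3 peaks, on the minus strand of chromosome 2. The peak nearest the start, from 38749539 to 38751355, had 21.06 RPM for RIP compared with 17.57 RPM for input, a ratio of 1.20. The middle peak, from 38748118 to 38748638, had 6.8 RPM beside 7.33 RPM. The third, from 38745174 to 38746179, had 2.99 RPM beside 3.19 RPM. These last peaks, with ratios of 0.93 and 0.94, were the only SR gene peaks below input. The peak caller's own log2FC was positive for both, at 0.63 in each. Over all peaks it exceeded the log2 RPM ratio by a median of 0.79, and its scaling is not stated. Whether they fall below or above input therefore depends on the measure. Of the caller's log2FC values for the 20 SR gene peaks, these were the lowest, and the second SRSF11 peak, with 3.22, was the highest.

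SRSF2, known as SC35 and recurrently mutated in myeloid malignancies, carried 2 peaks, on the minus strand of chromosome 17. The peak from 76736540 to 76737333 had 76.56 RPM in the RIP libraries against 26.05 RPM in the input libraries, a ratio of 2.94. The one downstream of it, from 76736365 to 76736464, had 13.33 RPM and 8.85 RPM, a ratio of 1.51. Plus-strand peaks under the identifier ENSG00000092931.12 overlapped both, with 55.21 RPM in RIP beside 29.63 RPM in input at the first and 29.52 RPM beside 23.5 RPM at the second. Their ratios were 1.86 and 1.26, lower than on the SRSF2 strand at each place. The SRSF2 gene value of 2.58 was in the middle of the higher group of SR genes.

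SRSF10, which represses splicing when it is dephosphorylated, and SRSF11, an RS-rich protein named p54, completed the set. SRSF10 had 1 peak on the minus strand of chromosome 1, from 23978799 to 23980346, with 3.63 RPM for RIP compared with 2.8 RPM for input, a ratio of 1.30. SRSF11 had 2 peaks on the plus strand of chromosome 1. The first, from 70205732 to 70221380, was the widest of the SR gene peaks, at 15649 nt, and the weakest, with 0.56 RPM in the RIP libraries against 0.28 RPM in the input libraries. Its ratio was 1.97, just under the 2-fold line, and it would be exactly 2 without the added 0.01. The second, from 70221531 to 70228437, had 11.68 RPM in RIP beside 2.9 RPM in input, a ratio of 4.02. SRSF11 thereby had the highest gene value of the SR genes, 3.84, at rank 1410 of 8478.

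**Figure D2:**
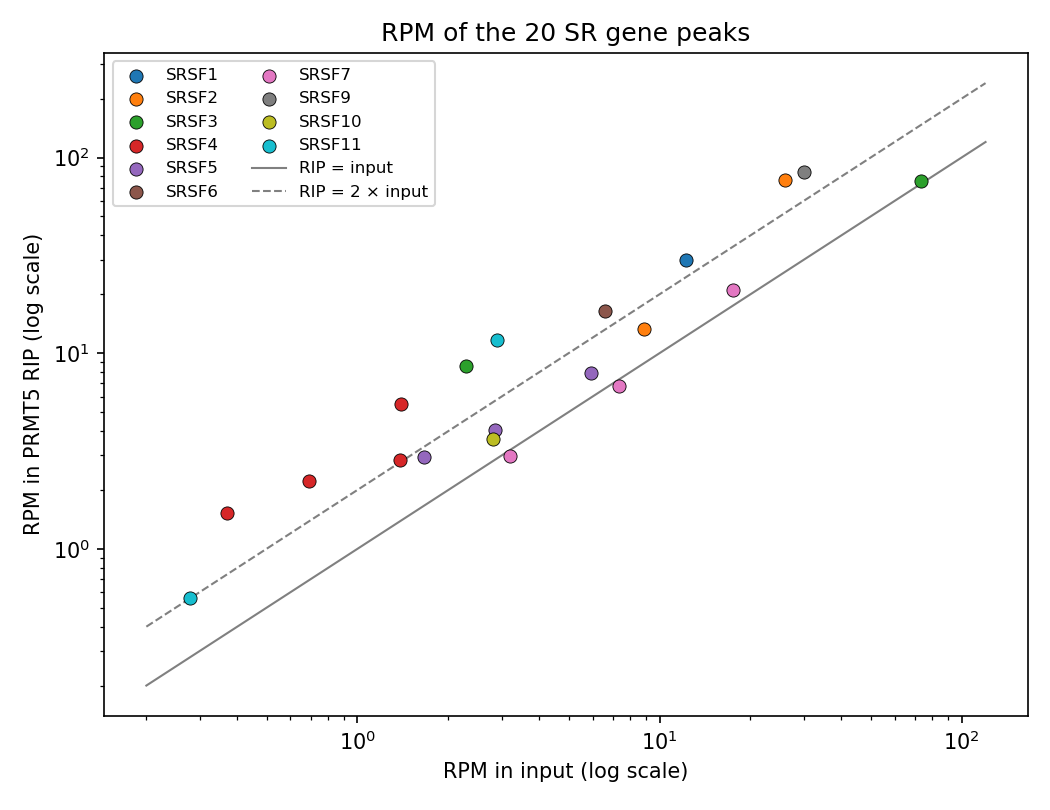
RPM in PRMT5 RIP (y axis) against RPM in input (x axis) for the 20 SR gene peaks, both on log scales and colored by gene, with lines at equal values and at 2-fold. Both SRSF7 peaks below the solid line had 2.99 and 6.8 RPM in PRMT5 RIP, and peaks of similar input differ in ratio, as SRSF11 with 2.9 RPM and SRSF10 with 2.8 RPM in input show.

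SR gene peaks of similar input RPM differed in ratio. A relation between input and ratio over all 20 SR gene peaks was not tested. At inputs of 2.28 to 3.19 RPM the list held the SRSF3 start peak with a ratio of 3.74, the second SRSF11 peak with 4.02, SRSF5 with 1.43, SRSF10 with 1.30 and SRSF7 with 0.94. Compared with the whole list the SR gene peaks had more RPM in input, with a median of 3.05 RPM against 0.83 RPM. They were also wider, with a median of 1047 nt against 275 nt. RPM is not scaled to width, so this does not show denser coverage. When peaks under 1 RPM in input were set aside, the median log2 ratio was 0.82 for 17 SR gene peaks and 0.83 for all 8888, so at this level the SR gene peaks were typical. By gene, with at least 1 RPM summed in input, the 10 SR genes had a median of 1.31 and 5478 genes one of 0.99.

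Along the gene, the 5′-most peak was more enriched than the 3′-most in 5 of the 6 SR genes with at least 2 peaks. The share over all 4657 such genes was 69.5%, so a majority in this direction is usual for the list. The differences in log2 ratio were 1.85 in SRSF3, 0.97 in SRSF4, 0.96 in SRSF2, 0.40 in SRSF5 and 0.35 in SRSF7. The median difference over all 4657 genes was 0.41, which SRSF5 and SRSF7 fell just below and the other 3 exceeded. SRSF11 went the other way, with a difference of -1.03. Its weak first peak rests on 0.28 RPM in input and ends at the internal start described above, and without peaks under 0.5 RPM in input SRSF11 had 1 peak and no such comparison.

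Genes that act with SR proteins were described next to them. Of 31 partner genes listed (kinases, import and export factors, other RS domain proteins, factors that recognize splice sites and nonsense-mediated decay factors), 24 were matched to peaks, 1 had peaks but no unique name, and 6 had no peak. Among the 24, 14 reached a ratio of 2, or 58.3%, and their median log2 ratio was 1.24. The middle part of the list, from the lower to the upper quartile, ran from 0.91 to 1.59, and that of the SR genes from 0.41 to 1.46. Among partners with at least 1 RPM summed in input, the highest were SON, a large scaffold of nuclear speckles, with 8.49 RPM for RIP compared with 1.73 RPM for input, the decay helicase UPF1 with 4.38 RPM beside 1.06 RPM, and the speckle protein SRRM2 with 21.51 RPM beside 5.66 RPM. The lowest were CLK3, a kinase of RS domains, with a ratio of 1.59, RNPS1, a component of exon junction complexes, with 1.36, and PNN with 1.26. The related gene SRSF8, which was in this list, had 1 peak with 3.04 RPM in the RIP libraries against 1.18 RPM in the input libraries, a ratio of 2.56. The 6 without a peak were the kinases CLK1, CLK2 and CLK4, and TRA2A, SMG6 and SRSF12.

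Other families of RNA-processing genes were set beside them. In the hnRNP genes, whose products often oppose SR proteins at exons, 10 of 24 reached a ratio of 2, and the median log2 ratio was 0.78. In the Sm and LSm genes, whose products form rings around spliceosomal RNAs and include substrates of PRMT5, listed with other snRNP protein genes, 5 of 21 did so, with a median of 0.61. Both medians were below those of the SR genes and their partners when all peaks were used. Without peaks that overlap the opposite strand, however, the SR gene median of 0.52 was below the hnRNP median of 0.78 and the Sm and LSm median of 0.61. The partner median was then 1.38. The genes this leaves out, SRSF1, SRSF2 and SRSF9, are all from the higher range of SR gene ratios, and the median becomes the value of SRSF5. Leaving out as many other genes of that range would give the same median. The drop therefore shows how far the SR gene median depends on a few genes, and it does not single out these. The order of the medians was not tested, since members of a family are not replicates, and the hnRNP list and the Sm and LSm list each spanned the whole range of the SR genes. Among hnRNP genes with at least 1 RPM summed in input HNRNPU was highest, with 67.76 RPM in RIP beside 11.69 RPM in input, followed by HNRNPLL with a ratio of 4.59 and HNRNPAB with 4.26. Below that input, HNRNPUL2 had a ratio of 6.23 and SYNCRIP one of 5, the latter from 0.14 RPM beside 0.02 RPM. HNRNPA1, HNRNPF and HNRNPC were lowest, with 1.30, 1.21 and 1.10. Among Sm and LSm genes LSM7 was highest, with a ratio of 4.06, then SNRPF with 3.09 and LSM6 with 3.04. SNRPG with 1.13, SNRPB2 with 1.06 and SNRPE with 0.97 were lowest.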

How the data were processed

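According to the submitters' processing notes, fastp and HISAT2 were used with the build hg38, and no versions are given. The peak caller, its settings and the annotation are not given in the sources used here. The deposited RPM values, 1 pooled value per group rounded to 0.01, were used to form ratios, and the deposited log2 fold change and FDR (a p-value adjusted by the peak caller) were used as an alternative measure and a filter only. Columns of p-values and scores were not used.

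The members and lists were chosen with earlier results of these data known. The starts in the list count from 0, and 1 was added to them. Each peak went to its first-listed identifier. An identifier was named by the symbol in the part of the supplementary table given, and otherwise by the RefSeq gene of GRCh38.p14 that all of its peaks touched on the same strand, which named 7291 of 8478 identifiers. Strands came from RefSeq start sites. The strand of SRSF2 was not stated there, so SRSF2 was matched by position and by no peak of that identifier touching another gene stated to lie on the minus strand. Positions were read for peaks that touched their named gene. All 10 members were described, and for other lists the 3 highest and 3 lowest genes with at least 1 RPM summed in input. The naming of partners without a peak, and of SRSF8, HNRNPUL2, SYNCRIP and the markers CD3D and LCK, was decided after their values were seen. Reads of overlapping genes, and of genes with near-identical copies, are uncertain in the deposited values. The computation was tested on simulated data and used Python 3.11.15, pandas 2.3.3 and numpy 2.4.6.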

Additional observations from a re-analysis of the deposited data

How the results depend on the processing

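No paired analysis was possible because each peak came with only pooled values of the RIP and the input libraries, although the labels number both groups 1 and 2, and for the same reason no library was left out. Low RPM limits the weakest peaks, and the unknown depth limits all of them. The cause of the following differences was not tested unless stated. With the peak caller's log2FC, 17 of 20 SR gene peaks reached 2-fold (91.2% of all peaks) and the median over SR genes was 1.996 (2.057 over all genes). At a 3-fold limit 5 peaks were left, beside 28.3% of all peaks. Without peaks that overlap the opposite strand, the median over SR genes was 0.517 (1.222 over all genes) and 3 of 7 genes reached 2-fold (63.9% of all genes), because SRSF1, SRSF2 and SRSF9 then had no peak, while the value of no other SR gene changed. By the 5′ edge in place of the midpoint, 11 of 20 peaks lay in the first 10% of the gene, beside 41.2% of all peaks. Within 50 nt of the start there were 6 genes, beside 41.6% of all genes with a position, and within 500 nt of the end there was 1, beside 26.3%. By the median of its peak ratios, SRSF7 had a log2 ratio of -0.093 in place of 0.135, and SRSF3 one of 0.977. The other 44 counts and medians and 62 values of single genes under alternatives kept their direction and moved by at most 1.5 times, but the values over all genes could move more: with 1 RPM added, 6 of 10 SR genes stood beside 30% of all genes, and the SR median of 1.216 beside 0.745. Of 24 medians of the other lists 21 moved by less than that, and those by the peak caller's log2FC were 2.299 for partners, 1.700 for hnRNP and 1.483 for Sm and LSm genes. The limits on distance from starts and ends, the count of genes at 2-fold and the alternatives for other lists were chosen after seeing the data. The planned counts of sequence motifs and dipeptides were not run, because a genome and proteins were not used here.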
